A study of Mus musculus with 12 samples.

Results

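The genes described here are Tnf and 8 genes for receptors and adaptors that act with it or beside it, taken by name as 9 of the 24340 gene rows in the expression table. They are the ligand Tnf, the receptors Tnfrsf1a, Tnfrsf1b, Tnfrsf12a, Tnfrsf10b, Fas and Cd40, and the adaptors Tradd and Traf2, and all 9 were above 0 in at least 1 library. Whole retinas of 6 mice carrying the p16‐3MR transgene, 12 to 16 weeks old, were sequenced as 12 RNA‐seq libraries. In every mouse IOP had been raised to 85 to 90 mm Hg for 60 min in one eye, with the other eye as the control. Mice 1, 2 and 5 then received GCV at 25 mg/kg once a day for 3 days, and mice 3, 4 and 6 received PBS, before the retinas were taken. This gave 4 groups of 3 retinas, ctrl and IOP from the PBS mice and ctrl_GCV and IOP_GCV from the GCV mice. The transgene is driven by the p16Ink4a regulatory region and encodes a viral thymidine kinase that turns GCV into a toxin, so that GCV acts in cells in which that region is active. Wild‐type mice given GCV were not among these libraries.

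TNF is a cytokine made mainly by activated myeloid cells, including microglia, the resident macrophages of the retina. It binds TNFR1 (Tnfrsf1a), which most cells carry and which holds an intracellular death domain, and TNFR2 (Tnfrsf1b), which lacks the death domain and is found mostly on immune, endothelial and some glial cells. TNFR1 recruits TRADD, and through it either TRAF2 and RIPK1, which lead to NF‐κB and its survival and inflammatory genes, or FADD and caspase‐8, which lead to apoptosis. Fas and the TRAIL receptor Tnfrsf10b signal death through FADD and caspase‐8, whereas CD40 and the TWEAK receptor Tnfrsf12a have no death domain and signal through TRAF proteins. In glaucoma models TNF signaling has been studied as a link between glial activation and the loss of retinal ganglion cells (RGCs).

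The sequences directly upstream of 4 of these genes are shown because 3 of them are the receptors that changed with IOP and the other is the ligand, and the letters let their start regions be compared. RefSeq promoters were at hand for 6 of the 9 genes (Tnf, Tnfrsf1a, Tnfrsf1b, Tnfrsf12a, Fas and Traf2). The sequences run 5′ to 3′ on the strand of the gene and end at the base before its annotated start in GRCm38.p6. Capitals mark matches, on either strand, to an interferon response element, a STAT site, a GC box or a TATA box.
Tnfrsf1b, chr4:145246871-145247070, minus strand: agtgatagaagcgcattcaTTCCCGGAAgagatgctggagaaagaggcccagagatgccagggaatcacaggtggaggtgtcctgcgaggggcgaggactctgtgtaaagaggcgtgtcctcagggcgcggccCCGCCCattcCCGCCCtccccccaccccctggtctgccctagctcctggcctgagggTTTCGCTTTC
Tnfrsf1a, chr6:125349473-125349722, plus strand: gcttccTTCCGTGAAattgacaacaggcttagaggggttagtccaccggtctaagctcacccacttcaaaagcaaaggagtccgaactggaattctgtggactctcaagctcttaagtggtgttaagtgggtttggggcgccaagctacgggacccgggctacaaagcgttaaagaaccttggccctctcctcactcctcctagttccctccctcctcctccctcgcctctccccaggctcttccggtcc
Tnfrsf12a, chr17:23677450-23677549, minus strand: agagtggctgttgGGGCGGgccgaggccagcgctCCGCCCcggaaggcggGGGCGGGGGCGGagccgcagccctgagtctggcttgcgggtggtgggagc
Tnf, chr17:35202008-35202107, minus strand: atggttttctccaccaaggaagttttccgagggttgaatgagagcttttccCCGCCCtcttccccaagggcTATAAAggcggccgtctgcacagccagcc

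The motifs were searched in the 250 bases upstream of each start, on both strands. The interferon response element (GAAA, any 2 bases, GAAA) lay in 2.98% of the 32851 promoters of the table and, among the 6 genes, in Tnfrsf1b, on the reverse strand and ending at the base before the start. The STAT letters (TTCNNNGAA, 7.02% of all promoters) were found in Tnfrsf1a, Tnfrsf1b and Fas. The TATA letters (TATAAA, 12.4%) were found in Tnf, 29 to 24 bases upstream. The GC box (GGGCGG, 32.7%) was found in Tnfrsf1b, Tnfrsf12a, Tnf and Fas. It occurred 5 times upstream of Tnfrsf12a, of which the 4 nearest copies are printed, with 2 of them side by side in a window of 78.0% G and C. An AP‐1 match (TGANTCA, 6.75%) was present in Fas. No match to the κB consensus (7.25%) was found in the 6 windows, which says only that these letters are not in these bases. Motif matches describe the sequence and are not measured binding.

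The libraries differed in depth and in the summed levels of cell type markers. The table gives FPKM, fragments per kilobase of exon scaled to library size, and depth estimated from its low values was 4000000 fragments in the IOP retina of mouse 6 and 6850000 to 9070000 in the other 11. That library also had the fewest genes above 0, 14844 against 16044 to 16593. Rod markers summed to 38100 to 71700 FPKM over all 12 libraries. The 14 RGC markers summed to 1030 to 1310 FPKM in ctrl and 1290 to 2080 in ctrl_GCV, and to 273 to 1170 in IOP and 447 to 849 in IOP_GCV. Lens markers were present in several libraries, at 69.8 to 133 FPKM in ctrl, 300.0 to 5840 in IOP, 155 to 8810 in ctrl_GCV and 3840 to 7540 in IOP_GCV, and their part in any result was not tested. In whole retina, fewer cells of a type and less RNA per cell cannot be told apart.

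IOP elevation went with higher mRNA of both TNF receptors. Over the 6 eye pairs, Tnfrsf1a and Tnfrsf1b rose in the IOP eye of all 6 mice, and Tnfrsf12a rose in 5 of 6. Tnf itself was listed at 0 in all 6 control retinas and was above 0 in 5 of 6 IOP retinas, at few fragments in 4 of them. Fas and Cd40 were higher in 5 of 6 IOP eyes but did not pass the test, and Tnfrsf10b, Tradd and Traf2 did not pass it either. With a threshold of 0.05 on the limma p adjusted over all 18509 genes above 0, 3 of the 9 genes were called and all 3 were higher, against 12.2% of all genes tested in either direction and 6.76% in the higher direction. With the mouse as a block 2 were called, Tnfrsf1a and Tnfrsf1b, against 7.3% of all genes.

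**Figure D1:**
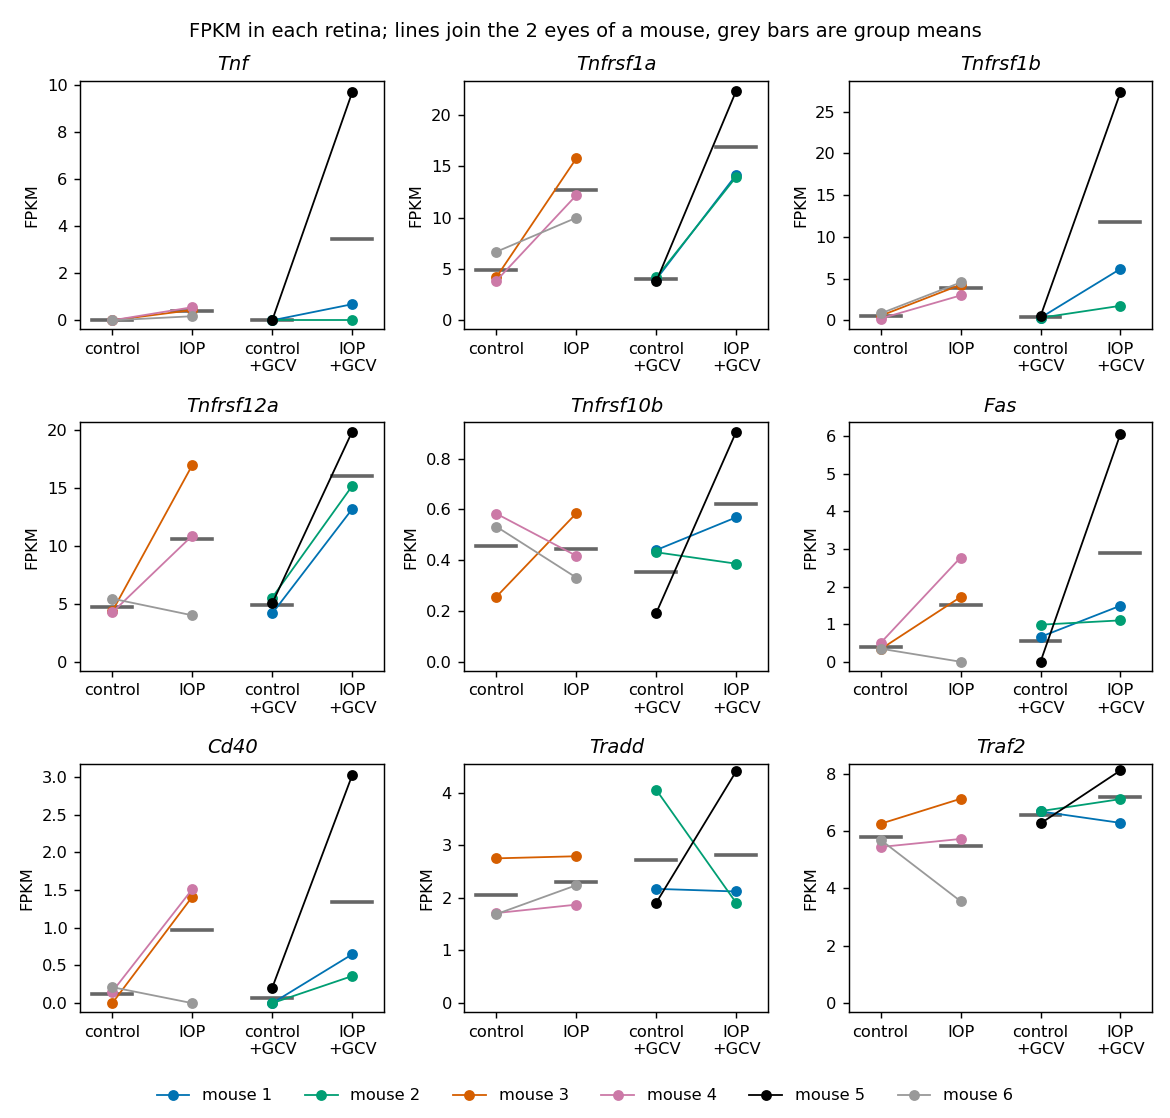
FPKM of the 9 genes in each of the 12 retinas, 1 panel per gene with its own axis from 0. Points are single libraries, coloured by mouse and joined for the eyes of a mouse, in the ctrl, IOP, ctrl_GCV and IOP_GCV groups, and grey bars are group means. Tnfrsf1a and Tnfrsf1b are higher in every IOP retina than in every control retina, and the IOP retina of mouse 5 holds the highest point in each panel.

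Tnf (chr17:35199367-35202007) encodes the ligand. It was 0.437 FPKM in the IOP retina of mouse 3, 0.556 in that of mouse 4 and 0.173 in that of mouse 6. In the IOP_GCV group it was 0.683 FPKM in mouse 1, 0 in mouse 2 and 9.67 in mouse 5, and all 6 control retinas were listed at 0. Estimated fragments behind these values were 5.09, 7.12 and 1.01 in mice 3, 4 and 6, and 8.13, 0 and 124 in mice 1, 2 and 5. A single library, the IOP retina of mouse 5, therefore held most of the Tnf signal of the study, and the other values above 0 rest on 1.01 to 8.13 estimated fragments. The difference over the 6 eye pairs on the log2(FPKM + 1) scale was 0.93 (SE, the standard error, 0.46; adjusted p = 0.209), and no fold is given because the control values are 0. Its nearest coding neighbour Lta, which encodes lymphotoxin and lies 1158 bases away, was 0 to 0.611 FPKM in the 4 groups.

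Tnfrsf1a (chr6:125349723-125362483), the gene for TNFR1, was 4.21, 3.86 and 6.68 FPKM in the control retinas of mice 3, 4 and 6, and 15.8, 12.2 and 10.0 FPKM in their IOP retinas. In the mice given GCV it was 4.0, 4.18 and 3.81 FPKM in the control retinas of mice 1, 2 and 5 and 14.2, 14.0 and 22.4 FPKM in their IOP retinas. All IOP values lay above all control values, in each treatment and over both. The group means were 4.92 ± 1.54 FPKM in ctrl, 12.7 ± 2.94 in IOP, 3.99 ± 0.186 in ctrl_GCV and 16.9 ± 4.75 in IOP_GCV (SD, n = 3). The log2 fold change over the 6 eye pairs, on the log2(FPKM + 1) scale, was 1.51 (SE 0.16, adjusted p = 0.000774), and the call held whichever of the 12 libraries was left out. Mouse 6, whose control retina had the highest control value and whose IOP retina had the lowest IOP value, gave the smallest change between eyes, 0.52, and mouse 5 the largest, 2.28.

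Tnfrsf1b (chr4:145212368-145246870), the gene for TNFR2, was at lower levels than Tnfrsf1a in all 6 control retinas. It was 0.541, 0.208 and 0.820 FPKM in the control retinas of mice 3, 4 and 6 and 4.25, 2.98 and 4.53 FPKM in their IOP retinas. With GCV it was 0.307, 0.301 and 0.491 FPKM in the control retinas of mice 1, 2 and 5 and 6.16, 1.74 and 27.3 FPKM in their IOP retinas. The IOP and control retinas did not overlap here either, although the lowest IOP value, in mouse 2, and the highest, in mouse 5, belong to the same group. Group means were 0.523 ± 0.307 FPKM in ctrl, 3.92 ± 0.823 in IOP, 0.366 ± 0.108 in ctrl_GCV and 11.7 ± 13.6 in IOP_GCV (SD, n = 3). The log2 fold change over the 6 eye pairs was 2.14 (SE 0.45, adjusted p = 0.0173), and it was called in 11 of 12 fits that left out 1 library, with an adjusted p of 0.0505 without the control retina of mouse 4. With a pseudocount of 0.1 in place of 1 the estimate was 3.35. Those of the other low genes were also over 1.5 times larger, 2.69 for Tnf, 2.23 for Cd40, 1.55 for Fas and 0.33 for Tnfrsf10b. The control values correspond to only 6.88 to 26.1 estimated fragments each. Of all 18509 genes tested, 5.47% had 6 IOP values above 6 control values and 10.7% were higher in the IOP eye of all 6 mice, and Tnfrsf1a and Tnfrsf1b, 2 of the 9 genes, met both.

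The ratio of the 2 TNF receptors within a retina was also described, a comparison chosen after the values had been seen and given with no test. Expressed as a percent of the Tnfrsf1a FPKM, Tnfrsf1b was 12.9%, 5.39% and 12.3% in the control retinas of mice 3, 4 and 6, and 26.8%, 24.5% and 45.2% in their IOP retinas. With GCV it was 7.70%, 7.20% and 12.9% in the control retinas of mice 1, 2 and 5, and 43.3%, 12.4% and 122% in their IOP retinas. Tnfrsf1b thus exceeded Tnfrsf1a in 1 library, the IOP retina of mouse 5, and the IOP retina of mouse 2 lay within the control range. The log2 ratio rose between the eyes of all 6 mice, by 0.79 in mouse 2 to 3.24 in mouse 5, with a mean of 1.94 ± 0.91 (SD, 6 pairs).

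**Figure D2:**
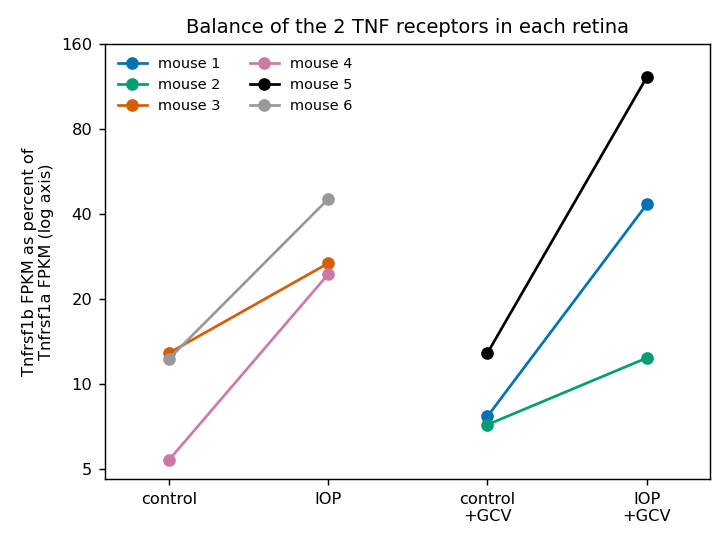
Tnfrsf1b as a percent of Tnfrsf1a FPKM in the control and IOP retina of each mouse, on a log axis, with a line joining the eyes of a mouse. All 6 lines rise, from 5.39% to 12.9% in control retinas to 12.4% to 122% in IOP retinas.

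Tnfrsf12a (chr17:23675445-23677449) encodes Fn14, the receptor for TWEAK, a gene known to be induced by injury in many tissues. It was 4.36, 4.26 and 5.45 FPKM in the control retinas of mice 3, 4 and 6 and 17.0, 10.9 and 4.01 FPKM in their IOP retinas. With GCV it was 4.17, 5.54 and 5.04 FPKM in the control retinas of mice 1, 2 and 5 and 13.2, 15.2 and 19.9 FPKM in their IOP retinas. The IOP retina of mouse 6 was below all 6 control retinas, and the other 5 IOP retinas were above them. The log2 fold change over the 6 eye pairs was 1.19 (SE 0.27, adjusted p = 0.0225), and with the mouse as a block the adjusted p was 0.0513. The call held in 7 of 12 fits without 1 library. It was lost without the control retina of mouse 1, 3, 4 or 5 or the IOP retina of mouse 5, and the log2 fold change in the 12 fits was 0.98 to 1.44. The 3′ end of Tnfrsf12a overlaps Hcfc1r1 on the other strand, and whether the counting used strand is not given in the sources used here.

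The remaining receptors were at low levels in the retina. Fas (chr19:34290647-34327775), the receptor of Fas ligand, was 0.334, 0.499 and 0.347 FPKM in the control retinas of mice 3, 4 and 6 and 1.72, 2.77 and 0 FPKM in their IOP retinas. With GCV it was 0.661, 0.985 and 0 FPKM in the control retinas of mice 1, 2 and 5 and 1.49, 1.10 and 6.06 FPKM in their IOP retinas. Apart from the 0 in mouse 6, each IOP value was above all control values, but the fitted difference of 0.90 on the log2 scale (SE 0.38, adjusted p = 0.14) was not called. Cd40 (chr2:165055614-165071654), through which T cells activate microglia and other antigen‐presenting cells, was 0, 0.153 and 0.212 FPKM in the control retinas of mice 3, 4 and 6 and 1.41, 1.51 and 0 FPKM in their IOP retinas. With GCV it was 0, 0 and 0.204 FPKM in the control retinas of mice 1, 2 and 5 and 0.647, 0.359 and 3.02 FPKM in their IOP retinas. The pattern was that of Fas, with the IOP retina of mouse 6 at 0 and the other 5 above all control retinas, and a fitted log2 difference of 0.84 (SE 0.29, adjusted p = 0.0854).

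The IOP retina of mouse 6 bears on both genes. Without that single library, Fas and Cd40 were called over the remaining eyes, with adjusted p = 0.049 and 0.032, and 5 of the 9 genes were called, beside 1895 of the 18490 genes tested without it. Of the 12 fits that left out 1 library, each of the 2 genes was called in this 1 only. At the estimated depth of that library, 1 fragment of Tnf stood for 0.173 FPKM. The part of depth in its 0 values of Fas and Cd40 was not tested. Tnfrsf10b (chr14:69767472-69784411), the mouse TRAIL receptor, was 0.193 to 0.583 FPKM in control retinas with a median of 0.435 and 0.331 to 0.907 FPKM in IOP retinas with a median of 0.493. It was higher in 3 of the 6 IOP eyes and lower in 3, and the ranges overlapped (log2 fold change 0.12, adjusted p = 0.454, on 3.98 to 23.9 fragments per library).

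Tradd (chr8:105258575-105264594), the adaptor that binds the TNFR1 death domain, was 1.69 to 4.05 FPKM in control retinas with a median of 2.04 and 1.87 to 4.41 FPKM in IOP retinas with a median of 2.18. Traf2 (chr2:25517982-25546940), the adaptor and ubiquitin ligase shared by TNFR1, TNFR2 and CD40, was 5.44 to 6.69 FPKM in control retinas with a median of 6.26 and 3.55 to 8.11 FPKM in IOP retinas with a median of 6.69. Each was higher in 4 of the 6 IOP eyes, and the groups overlapped. Their log2 fold changes over the 6 eye pairs were 0.073 (95% interval -0.38 to 0.53) for Tradd and -0.00078 (-0.31 to 0.31) for Traf2, and neither was called.

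**Figure D3:**
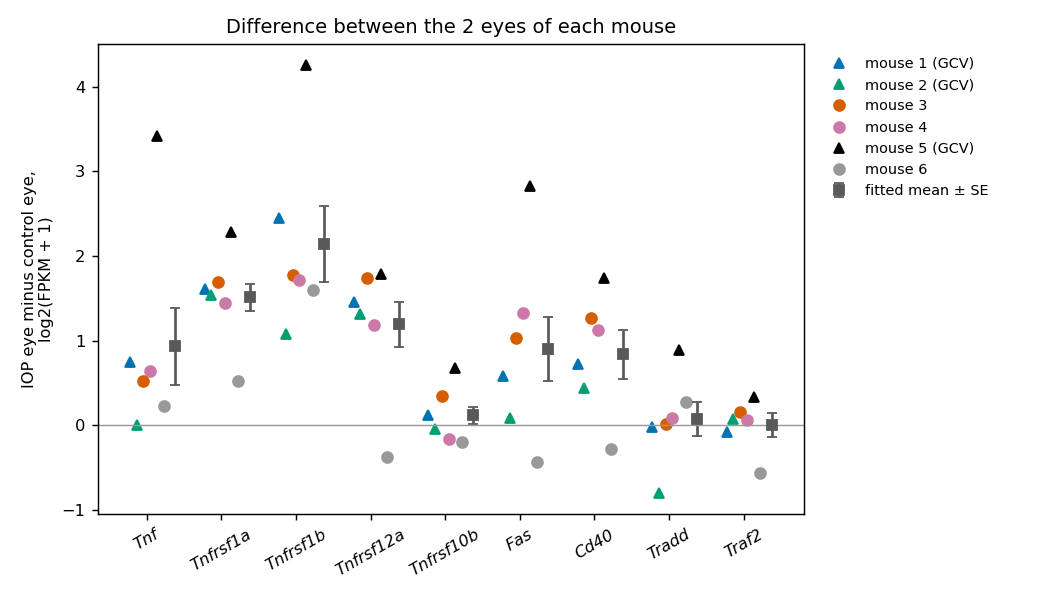
Change between the IOP and the control eye of each mouse, as a difference of log2(FPKM + 1), for the 9 genes. Triangles are mice with GCV, circles mice without, and squares with bars are the fitted mean with its standard error. The bars come from the fit without the mouse as a block and do not measure the spread of the points. Tnfrsf1a lies between 0.52 and 2.28 and Tnfrsf1b between 1.08 and 4.25, while Tradd and Traf2 scatter around 0.

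Ranked by the median FPKM in the 6 control retinas, Traf2 came first at 6.26, then Tnfrsf12a at 4.70, Tnfrsf1a at 4.09, Tradd at 2.04, Tnfrsf10b at 0.435, Fas at 0.423, Tnfrsf1b at 0.399 and Cd40 at 0.0767, with Tnf at 0. The ranges of neighbours in this order overlapped or met, except between Tradd and Tnfrsf10b. In IOP retinas the order began with Tnfrsf12a at 14.2 FPKM and Tnfrsf1a at 14.1, followed by Traf2 at 6.69 and Tnfrsf1b at 4.39, then Tradd at 2.18, Fas at 1.60, Cd40 at 1.03, Tnf at 0.496 and Tnfrsf10b at 0.493. Neighbours in this order overlapped as well, except Tnfrsf1a and Traf2. By its median, Tnfrsf1b stood next to Fas and Tnfrsf10b in control retinas and above Tradd in IOP retinas, although the 2 ranges overlapped and in mouse 2 it was below Tradd (1.74 against 1.90 FPKM).

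The study asked whether removing p16‐positive cells with GCV alters the response to IOP. Without GCV, 1 of the 9 genes was called, Tnfrsf1a (fitted log2 difference 1.22, SE 0.23, adjusted p = 0.0325), against 1.65% of all genes in either direction and 1.42% higher. With the mouse as a block its adjusted p was 0.131, and without the control retina of mouse 3 or 4 or the IOP retina of mouse 3 it was not called. Fitted on the 6 PBS libraries only, Tnfrsf1a was not called either (adjusted p = 0.0853), and Tnfrsf1b was the 1 of the 9 that was (adjusted p = 0.0295). With GCV, again only Tnfrsf1a of the 9 was called (fitted log2 difference 1.81, SE 0.23, adjusted p = 0.0059), against 1.8% of all genes in either direction and 1.65% higher. Its adjusted p with the mouse as a block was 0.0499, just under the threshold. Without both eyes of mouse 5 its adjusted p was 0.0572, and no gene of the 9 was then called with GCV. Tnfrsf1b and Tnfrsf12a had estimates above 0 in both treatments, 1.70 and 0.85 without GCV and 2.59 and 1.52 with it, and did not pass the test in either. Single libraries decided some of these values. The Tnfrsf12a difference without GCV was 0.44 without the IOP retina of mouse 3, and 1.37 without the IOP retina of mouse 6, where it was called (adjusted p = 0.0288). The Tnfrsf1b difference with GCV was 1.70 without the IOP retina of mouse 5, and 3.38 without the IOP retina of mouse 2, where it was called (adjusted p = 0.00512). Their adjusted p with GCV, 0.0718 and 0.0733, lay near the threshold. Tnfrsf1b passed with GCV at a pseudocount of 0.1 (0.0263), both passed with a minimum of 1 FPKM in 3 libraries (0.0457 each), and Tnfrsf12a passed in the fit of the 6 GCV libraries only (0.0394). Counted by overlap, 3 of the 9 genes (Tnf, Tnfrsf1a and Tnfrsf1b) had 3 IOP values above 3 control values without GCV, against 11.7% of all genes. With GCV 5 of the 9 did (Tnfrsf1a, Tnfrsf1b, Tnfrsf12a, Fas and Cd40), against 14.5% of all genes. With the mouse as a block, 0 of the 9 were called without GCV, 1 with GCV and 2 over the 6 eye pairs, against 0.405%, 0.778% and 7.3% of all genes.

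No difference between these responses was detected. In the interaction, 0 of the 9 genes were called by limma and 0 had an unadjusted p under 0.05, where 0% and 1.93% of all genes did. The response of Tnfrsf1a with GCV minus that without was 0.59 on the log2 scale (95% interval -0.14 to 1.32), that of Tnfrsf1b 0.89 (-1.10 to 2.89) and that of Tnfrsf12a 0.67 (-0.51 to 1.85). Without the IOP retina of mouse 5 or of mouse 2, the Tnfrsf1b value was 0.0039 or 1.69. Without the IOP retina of mouse 6 or of mouse 3, that of Tnfrsf12a was 0.15 or 1.08. For Tnfrsf1a the range without 1 library was 0.38 to 0.75. For Tnf the interval was -1.12 to 2.97 and for Fas -1.16 to 2.20. With 3 mice a treatment the intervals include 0 for each of the 9 genes. For Tnfrsf1a, Tnfrsf1b and Tnfrsf12a they extend upward past the size of the IOP response without GCV and downward to less than that size.

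Direct comparison of the GCV and PBS mice gave the same counts. These comparisons share the IOP or control retinas with those above and are not independent of them. In IOP retinas, GCV against PBS, 0 of the 9 genes were called by limma and 0 had an unadjusted p under 0.05, where 0% and 4.18% of all genes did. All 9 estimates were above 0 in that comparison, with Tnfrsf1a at 0.38 (95% interval -0.14 to 0.89), Tnfrsf12a at 0.72 (-0.11 to 1.56), Tnfrsf1b at 0.76 (-0.66 to 2.17) and Tnf at 0.93 (-0.52 to 2.37). Without 1 library, the estimates were 0.17 to 0.54 for Tnfrsf1a and 0.21 to 1.13 for Tnfrsf12a. In control retinas, 0 of the 9 were called by limma and 0 had an unadjusted p under 0.05, where 0% and 1.59% of all genes did, and 4 estimates were above 0 and 4 below, with Tnf at 0.

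The estimates in IOP retinas depended on single libraries, those of mice 5 and 6 among them. The IOP retina of mouse 5 held the highest value of the 12 libraries for all 9 genes, against 14.7% of all genes tested, and none of the other 5 IOP retinas held the highest value of any of the 9. Of the 1252 genes called higher over the 6 eye pairs, 58.6% also peaked in that library. Without it, the GCV effect in IOP retinas was -0.088 for Tnf, -0.14 for Tnfrsf1b, -0.28 for Cd40 and -0.12 for Tradd, so that the sign of these 4 estimates turned. Without the IOP retina of mouse 6, the GCV effect was -0.24 for Cd40, 0.057 for Fas, 0.14 for Traf2, 0.21 for Tnfrsf12a and 0.23 for Tnfrsf1a, where with all 12 libraries it was 0.19, 0.62, 0.37, 0.72 and 0.38. Without both eyes of mouse 5, the IOP response over the remaining 5 eye pairs was 1.39 for Tnfrsf1a (adjusted p = 0.00348), 1.73 for Tnfrsf1b (adjusted p = 0.00911) and 1.12 for Tnfrsf12a (adjusted p = 0.104). Without both eyes of mouse 6 the corresponding values were 1.69 (adjusted p = 0.00163), 2.17 (adjusted p = 0.0624) and 1.49 (adjusted p = 0.00304).

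Marker lists of cell types that can carry these receptors differed in how they moved, beside 12.2% of all genes called over the 6 eye pairs in either direction, 6.76% called higher, and 7.3% called in either direction with the mouse as a block. The 14 microglial markers summed to 82.0 to 132 FPKM in ctrl, 360.0 to 623 in IOP, 99.7 to 112 in ctrl_GCV and 329 to 870.0 in IOP_GCV, and 10 of 14 were called higher and 1 lower over the 6 eye pairs, or 9 and 1 with the mouse as a block. The 16 markers of infiltrating leukocytes summed to 9.77 to 48.0 FPKM in ctrl, 332 to 752 in IOP, 12.4 to 37.4 in ctrl_GCV and 179 to 2520 in IOP_GCV, with 9 of 16 called higher, also with the block. Among their defining markers, the T cell gene Cd3e was at 0 in all ctrl_GCV libraries. The 10 markers of reactive glia summed to 156 to 298 FPKM in ctrl, 804 to 935 in IOP, 181 to 212 in ctrl_GCV and 835 to 2060 in IOP_GCV, and 10 of 10 were called higher, or 9 with the block. The 10 endothelial markers summed to 29.7 to 39.8 FPKM in ctrl, 21.8 to 64.5 in IOP, 31.4 to 45.6 in ctrl_GCV and 36.2 to 41.6 in IOP_GCV, with 1 of 10 called higher. The 12 markers of Mueller glia summed to 1950 to 2170 FPKM in ctrl, 1650 to 1930 in IOP, 2320 to 2490 in ctrl_GCV and 1660 to 2340 in IOP_GCV, with 1 of 12 called higher and 2 lower, or 1 and 1 with the block. The highest sums of the microglial, leukocyte and reactive glia lists, 870.0, 2520 and 2060 FPKM, were in the IOP retina of mouse 5, the library in which all 9 genes peaked. Mouse 2, with the lowest Tnfrsf1b of the IOP retinas, had the lowest microglial and leukocyte sums among them, 329 and 179 FPKM. The IOP retina of mouse 6 had microglial and leukocyte sums of 623 and 752 FPKM, the highest of the IOP group. Its Tnfrsf1b was 4.53 FPKM. Its Tnfrsf1a and Tnfrsf12a, 10.0 and 4.01 FPKM, were the lowest of the IOP retinas, and its Fas and Cd40 were 0. The part of these cells in the receptor differences was not tested.

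The genes with the most similar profiles were found by the root mean square difference of log2(FPKM + 1) over the 12 libraries after subtraction of each gene's mean, among the 12910 genes that averaged at least 1 FPKM. For Tnfrsf1a they were Parp3 and Glipr2, with differences of 0.146 and 0.155 where Tnfrsf1a itself had an SD of 0.845. For Tnfrsf1b they were Lrrc25 and Pirb, with differences of 0.208 and 0.244 at an SD of 1.37. For Tnfrsf12a they were Oas1b and Dhx58, with 0.219 and 0.223 at an SD of 0.801. Pirb was 1.81 to 26.3 FPKM in IOP_GCV, against 1.87 to 5.06 in IOP and 0.0507 to 0.447 in control retinas. Its IOP_GCV mean, 10.7 ± 13.6 FPKM, had an SD above the mean, like that of Tnfrsf1b, 11.7 ± 13.6 (n = 3). Without the IOP retina of mouse 5, the GCV effect on Tnfrsf1b in IOP retinas was -0.14. The likeness describes these 12 libraries, which share the same IOP difference.

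Other genes of the pathway were counted in lists named by role. Of 17 further ligands of the TNF superfamily, 15 were above 0 and 1 was called over the 6 eye pairs, Tnfsf10, which encodes TRAIL, the ligand of Tnfrsf10b. It was 0.235 ± 0.148 FPKM in ctrl, 0.819 ± 0.297 in IOP, 0.154 ± 0.0539 in ctrl_GCV and 0.706 ± 0.440 in IOP_GCV (SD, n = 3), a log2 difference of 0.54 (adjusted p = 0.0272). The share called was 6.67%, against 6.76% of all genes called higher and 12.2% in either direction. The median log2 fold change of the 15 ligands was 0.046, against 0.0089 over all genes tested and 0.90 over the 9 genes. Of the ligands of the other receptors, chosen after their values were seen, Fasl was 0 to 0.199 FPKM and Cd40lg 0 to 0.119 FPKM over the 4 groups. Tnfsf12, which encodes TWEAK, was listed at 147 to 198 FPKM in control retinas, 155 to 223 in IOP_GCV and 147 to 1370 in IOP, with the highest value in mouse 6. In RefSeq it lies within the readthrough gene Tnfsfm13, and how reads of the 2 were divided is not given in the sources used here.

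Of 22 further receptors, 4 were called higher and 1 lower, 22.7% against 12.2% of all genes in either direction and 18.2% against 6.76% higher. Ltbr, the lymphotoxin beta receptor, rose from 3.02 ± 0.719 to 6.94 ± 2.16 FPKM without GCV and from 3.67 ± 0.176 to 8.51 ± 1.94 FPKM with it (SD, n = 3; log2 fold change 0.98, adjusted p = 0.00672). Tnfrsf14, the receptor for LIGHT also called HVEM, rose by 0.85 in log2 units (adjusted p = 0.013), and Eda2r, the receptor for ectodysplasin A2, by 0.38 (adjusted p = 0.0185), with control retinas at 0 to 0.158 FPKM for Tnfrsf14 and 0 to 0.05 FPKM for Eda2r. Tnfrsf8, which encodes CD30, rose by 0.47 (adjusted p = 0.0469, with the mouse as a block 0.068), and Tnfrsf25, which encodes death receptor 3, fell by 0.22 (adjusted p = 0.0275, with the block 0.0704). Tnfrsf25 was at low levels, with means of 0.111 FPKM in ctrl, 0.0509 in IOP, 0.31 in ctrl_GCV and 0.0283 in IOP_GCV. Tnfrsf8 and Tnfrsf25, named after their values were seen, are the other called members of the list. The median log2 fold change of the 22 was 0.12.

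Of 30 adaptors, caspases and regulators of the death and NF‐κB branches, 3 were called, all higher, 10.0% of the list against 6.76% of all genes called higher and 12.2% in either direction. Casp8, the initiator caspase of death receptors, rose from 0.580 ± 0.349 to 3.08 ± 1.86 FPKM without GCV and from 0.410 ± 0.212 to 3.65 ± 3.47 FPKM with it (SD, n = 3; log2 fold change 1.39, adjusted p = 0.0269). Ripk1, the kinase that stands between survival and death signals of TNFR1, rose from 1.60 ± 0.280 to 4.22 ± 1.31 FPKM and from 1.46 ± 0.279 to 3.93 ± 1.99 FPKM (SD, n = 3; log2 fold change 0.96, adjusted p = 0.0145). Daxx, a Fas‐binding nuclear protein, rose by 0.59 in log2 units (adjusted p = 0.00966). The other 27 were not called, and the median of the list was 0.11.

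Of 22 genes known as targets of TNF and NF‐κB, 21 were above 0, 11 were called higher and 1 lower, with a median log2 fold change of 0.87. These are 57.1% of the list in either direction and 52.4% higher, against 12.2% and 6.76% of all genes. With the mouse as a block 7 were called higher and 1 lower. Bcl3, an NF‐κB cofactor, rose by 4.04 in log2 units (adjusted p = 0.000332), from 0.329 to 0.961 FPKM in ctrl to 15.1 to 59.9 FPKM in IOP and from 0.311 to 0.397 FPKM in ctrl_GCV to 10.2 to 39.8 FPKM in IOP_GCV. Ccl2, which draws monocytes, rose by 3.00 (adjusted p = 0.000712), and Junb, an AP‐1 subunit, by 2.06 (adjusted p = 0.000833). The gene called lower, named after its value was seen, was Tnfaip3, which encodes the NF‐κB inhibitor A20. It was 88.1 ± 2.69 FPKM in ctrl, 41.1 ± 4.6 in IOP, 82.1 ± 6.47 in ctrl_GCV and 52.0 ± 17.3 in IOP_GCV (SD, n = 3), a log2 difference of -0.90 (adjusted p = 0.00609). These genes also respond to other signals, and the lists were read by counts only.

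**Figure D4:**
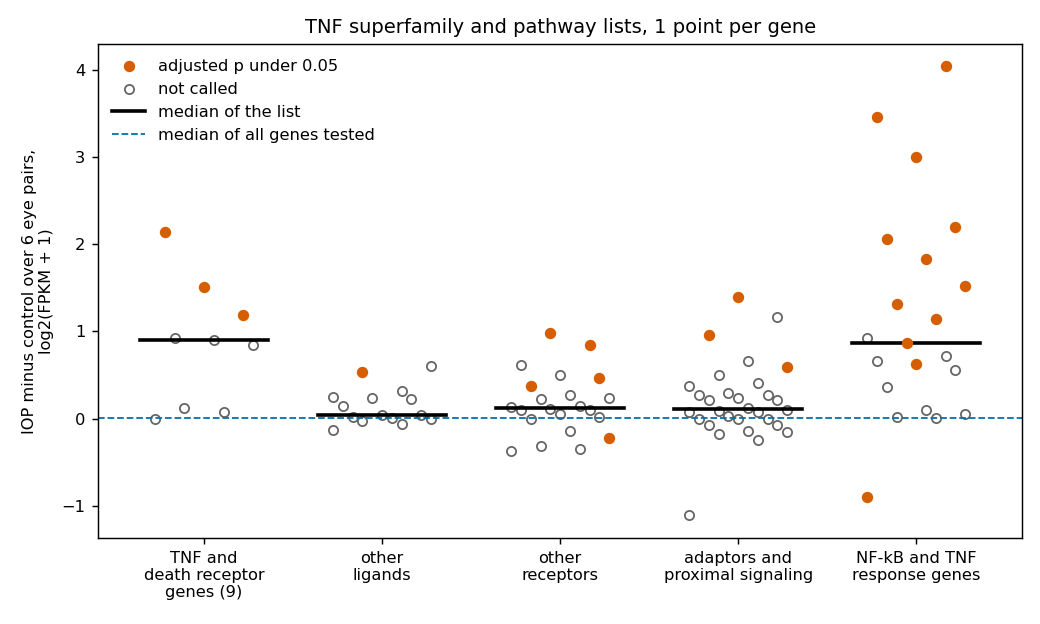
Log2 fold change over the 6 eye pairs for each tested gene of the 9 TNF and death receptor genes and of the lists of further ligands, receptors, adaptors and targets; filled points passed an adjusted p of 0.05, thick lines mark the list medians and the dashed line the median of all genes. From left to right the list medians are 0.90, 0.046, 0.12, 0.11 and 0.87, and Tnfaip3 is the target called below 0.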

How the data were processed

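RNA‐seq libraries were made by the authors from 1 µg of total RNA per retina with a stranded mRNA kit and sequenced as paired ends. Reads were counted with HOMER on exons of RefSeq genes per the methods of the study, and the submitters' processing notes list TopHat2, Bowtie2, Cufflinks, Cuffdiff and the build mm10 with no role or order. The table deposited by the authors holds FPKM values, a unit read from the values, for 24340 genes in 12 libraries, with 0 columns left unused. Depth is not in the table. It was estimated, below a search limit, from low values among 3628 genes, 351 to 448 values in a library. At 4000000 to 9070000 fragments, 79.1% to 85.2% of the values used came within 0.2 of a whole number of fragments. The depth was chosen to bring these values near whole numbers, so this share is no separate test of it. Estimated fragment numbers are approximate.

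The log2(FPKM + 1) values of 18509 genes above 0 were fitted by limma (version 3.58.1, R 4.3.3) as 4 group means. The variance trend was used, and genes were called at a Benjamini-Hochberg adjusted p under 0.05. This scale understates changes of low genes. No test is named for the RNA‐seq in the methods of the study. Contrasts were IOP against control without GCV, with GCV and over the 6 eye pairs, their interaction, and GCV against PBS in IOP and in control retinas. The 2 eyes of a mouse come from the same animal, and the correlation of their deviations from the group means was -0.12 to 0.39 over 12910 genes. The fit without a block is reported, with the block beside calls and counts that it changes. Groups come from the labels, no libraries were identical, and each group has 3 mice.

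The 9 genes and all lists were chosen with earlier results of these data known. Named besides the 9 are the called genes of each pathway list that ranked in its first 3 by adjusted p, the 2 genes most alike to each called gene, and genes said to be chosen after their values were seen. In addition, Lta, Hcfc1r1 and Tnfsfm13 are named for their position, and Cd3e as a defining marker. Alternatives were a pseudocount of 0.1, a minimum of 1 FPKM in 3 libraries, median-ratio scaling, the mouse as a block, no trend, only the groups compared, and each library left out. Leaving out both eyes of mouse 5 or of mouse 6 was a later addition, chosen with the data in view. Promoters and positions are from RefSeq, GRCm38.p6. Depth, positions and figures were computed in Python 3.11.15 (numpy 2.4.6, pandas 2.3.3, matplotlib 3.10.9). Protein sequences were not used here. The value of 1 marker gene is not reported here.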

Additional observations from a re-analysis of the deposited data

Results flagged for a closer look

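For 2 genes the change of 1 mouse stood apart from the other 5 mice, by its gap to the nearest value as a share of the whole range (Dixon's test), which chance passes in about 1 in 20 groups. The difference of Tnf between the eyes of mouse 5 was 3.42 on the log2(FPKM + 1) scale, and the nearest mouse had 0.75. The difference of Tnfrsf12a between the eyes of mouse 6 was -0.37, and the nearest mouse had 1.18.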

How the results depend on the processing

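The count of the 9 genes called depends on settings and single libraries. With GCV, where 1 was called, the count was 2 with a pseudocount of 0.1, 3 (of 7 tested) with a minimum of 1 FPKM in 3 libraries, 2 with only the groups compared, 0 without both eyes of mouse 5, 2 without both eyes of mouse 6, and 1 to 2 without 1 library. Without GCV, where 1 was called, it was 2 without both eyes of mouse 5 and 0 to 2 without 1 library. Over the 6 eye pairs it was 1 to 5 without 1 library.

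The mouse as a block (pairing by animal) gave 0 of the 9 without GCV, 1 with GCV and 2 over the 6 eye pairs. It ended the calls of Tnfrsf1a without GCV and of Tnfrsf12a over the 6 pairs. No other call of the 9 changed with it.

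The background moved too. Of all genes, 306 were called without GCV, 464 with a pseudocount of 0.1, 75 with the block, 583 and 65 without mouse 5 and mouse 6, and 23 to 2490 without 1 library. With GCV 334 were called, 535 with a pseudocount of 0.1, 144 with the block, 92 with only the groups compared, 457 of 13411 with the 1 FPKM minimum, 67 without mouse 5, and 77 to 716 without 1 library. Over the 6 eye pairs 2258 were called, 1351 with the block, 777 and 948 without mouse 5 and mouse 6, and 830.0 to 4515 without 1 library. For GCV in control retinas 0 were called by limma, 1 with a pseudocount of 0.1 or only the groups compared, 2 without mouse 6, and 0 to 3 without 1 library. For GCV in IOP retinas the range without 1 library was 0 to 4, and for the interaction 0 to 2.

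Some estimates changed sign, none of them called. The GCV effect on Fas in control retinas was -0.16 with a pseudocount of 0.1. Without 1 library, it was -0.11 to 0.38 for Fas and -0.02 to 0.15 for Tnfrsf12a. In IOP retinas the GCV effect was -0.088 to 1.62 for Tnf, -0.14 to 1.55 for Tnfrsf1b, -0.28 to 0.50 for Cd40 and -0.12 to 0.32 for Tradd. The interaction was -0.088 to 1.62 for Tnf, -0.04 to 0.92 for Fas, -0.21 to 0.57 for Cd40, -0.38 to 0.15 for Tradd and -0.014 to 0.40 for Traf2. The IOP effect without GCV was -0.11 to 0.055 for Tnfrsf10b and -0.29 to 0.12 for Traf2, with GCV -0.26 to 0.27 for Tradd, and over the 6 pairs -0.068 to 0.19 for Tradd and -0.093 to 0.12 for Traf2. In the other settings, including median-ratio scaling and no trend, no count of the 9 changed by over 1.5 times. Values under 1 FPKM rest on few fragments, and the causes of these dependencies were not tested.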
